A study of Mus musculus with 8 samples.

Results

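The genes of the DNA replication machinery were followed through 8 RNA-seq libraries of mouse CD8 T cells. They are 49 named genes for the replicative helicase, its loading factors, the DNA polymerases, the sliding clamp, fork protection, Okazaki fragment processing, nucleotide supply, chromatin assembly and E2F1. All 49 were found by symbol among the 31815 genes of the count table, with 1 row each, and lie on 15 chromosomes. Naive CD8 T cells came from the spleens of OTI mice (C57BL/6-Tg(TcraTcrb)1100Mjb/J), a strain with a transgenic T cell receptor that recognises a peptide of ovalbumin. Culture with that peptide lasted 3 days, and at 24 h the cells were transduced with TOXFL or TOXdeltaN, named Long and Short in the sample descriptions. These are the 2 proteins of the Tox gene, which encodes a nuclear factor of T cells, and each construct also carried IRES-GFP. Sorting on day 5 took the cells without GFP and, of those with GFP, the top 20% by brightness. The TOXFL cultures thus gave TOXFL-negative and TOXFL-positive cells, and the TOXdeltaN cultures gave TOXdeltaN-negative and TOXdeltaN-positive cells, with 2 libraries per group. The negative cells had thus met the same peptide and the same transduction as the positive cells. A construct with GFP alone was not analysed here, so the effect of taking up any construct cannot be told apart from that of TOX. The positive cells are also those that took up a construct and were then picked for bright GFP. A difference that such cells had before transduction cannot be told apart from an effect of the construct either.

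Replication starts at origins that were licensed before S phase. The origin recognition complex, CDC6 and CDT1 load rings of MCM2 to MCM7 onto DNA, and CDC45 and the GINS complex then join each ring to form the active helicase. DNA polymerase alpha with primase starts each strand, polymerases epsilon and delta extend it, and PCNA, loaded by replication factor C, holds them on the template. Activated CD8 T cells divide fast in the first days after antigen contact, and E2F factors are known to drive many of these genes as cells enter S phase.

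Replication genes were higher in the GFP-positive cells of both cultures, by a small and similar amount. Their counts, given as CPM (counts normalised to library size after TMM scaling), summed over the 49 genes to 8256 and 8802 for TOXFL-negative and to 10061 and 10491 for TOXFL-positive cells. For TOXdeltaN the sum was 8675 and 9027 in negative cells and 10177 and 10125 in positive cells. All 4 positive libraries thus lay above all 4 negative libraries, by 1.205-fold with TOXFL and 1.15-fold with TOXdeltaN. The median log2 difference of the 49 genes was 0.30 with TOXFL and 0.27 with TOXdeltaN, against -0.0030 and 0.0054 over all 13329 genes tested. With bulk RNA, a larger share of cells in S phase and more RNA per cell cannot be told apart.

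Genes with an adjusted p under 0.05 in edgeR's quasi-likelihood test, adjusted over all tested genes, are termed called. With TOXFL alone, 0 of 49 members were called, where 0.045% of all tested genes were. By unadjusted p, 33 members were under 0.05, and 9 were called by DESeq2. With TOXdeltaN alone, 0 of 49 were called against 0.03% of all genes, with 29 at an unadjusted p under 0.05 and 2 by DESeq2. The shares of all genes by unadjusted p and by DESeq2 are not given here, so these counts cannot be set against them. The average of the effects of both vectors, with 4 libraries against 4, called 11 members, all higher, where 1.34% of all tested genes were called higher. These were Gins3, Orc6, Prim2, Rfc5, Rpa2, Fen1, Lig1, Rrm2, Tyms, Tk1 and Chaf1a. In the blocked fit, which adds the replicate number as a term, the average called 32 members, all higher, against 6.04% of all genes. TOXFL then called 10 against 1.51%, and TOXdeltaN called 4 against 0.773%. These shares of all genes also apply to the counts by role below.

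The number of calls among the members changed when single libraries were left out. Each omission leaves a group with a single library and changes the estimate of spread used for every gene. Calls over all genes are not given for these fits, so whether the changes are particular to the members cannot be told. For the average, 0 members were called without TOXFL-negative replicate 1, TOXFL-positive replicate 2, TOXdeltaN-negative replicate 1 or TOXdeltaN-negative replicate 2. The count was 1 without TOXFL-negative replicate 2, 6 without TOXFL-positive replicate 1, 33 without TOXdeltaN-positive replicate 1 and 15 without TOXdeltaN-positive replicate 2. In the blocked fit these omissions gave between 6 members (without either TOXdeltaN-negative library) and 40 (without TOXdeltaN-positive replicate 2), with 14 without either TOXFL-negative library. Without the block, TOXFL called 3 members without either TOXdeltaN-positive library, and TOXdeltaN called 17 without TOXdeltaN-positive replicate 1. For TOXFL, the blocked fit called 36 members without either TOXdeltaN-positive library and at most 1 without any other. For TOXdeltaN it called 26 without TOXdeltaN-positive replicate 1, 11 without TOXdeltaN-positive replicate 2 and at most 1 otherwise. Rrm2, Tyms, Tk1, Prim2 and Fen1 were called in the blocked average in all 8 omissions.

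Direction was more uniform than the calls. The log2 difference was above 0 for 47 of 49 members with TOXFL (49.4% of all genes) and for 44 of 49 with TOXdeltaN (50.8% of all genes). Both TOXFL-positive libraries lay above both TOXFL-negative libraries for 44 members, where 24.9% of all tested genes did so. With TOXdeltaN this held for 38 members, against 21.1% of all genes. In 35 members all 4 positive libraries lay above all 4 negative libraries, against 8.22% of all genes. These shares also apply where groups are said below not to overlap. Clspn alone had its TOXFL-positive libraries below its TOXFL-negative libraries, and no member had this order with TOXdeltaN. The TOXFL and TOXdeltaN differences contrast separate libraries, whereas the average is made from the same libraries as both. All libraries were fitted together with a shared estimate of spread, so the calls and p-values of TOXFL and TOXdeltaN are not independent. In the blocked fit the differences also share the replicate term.

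**Figure D1:**
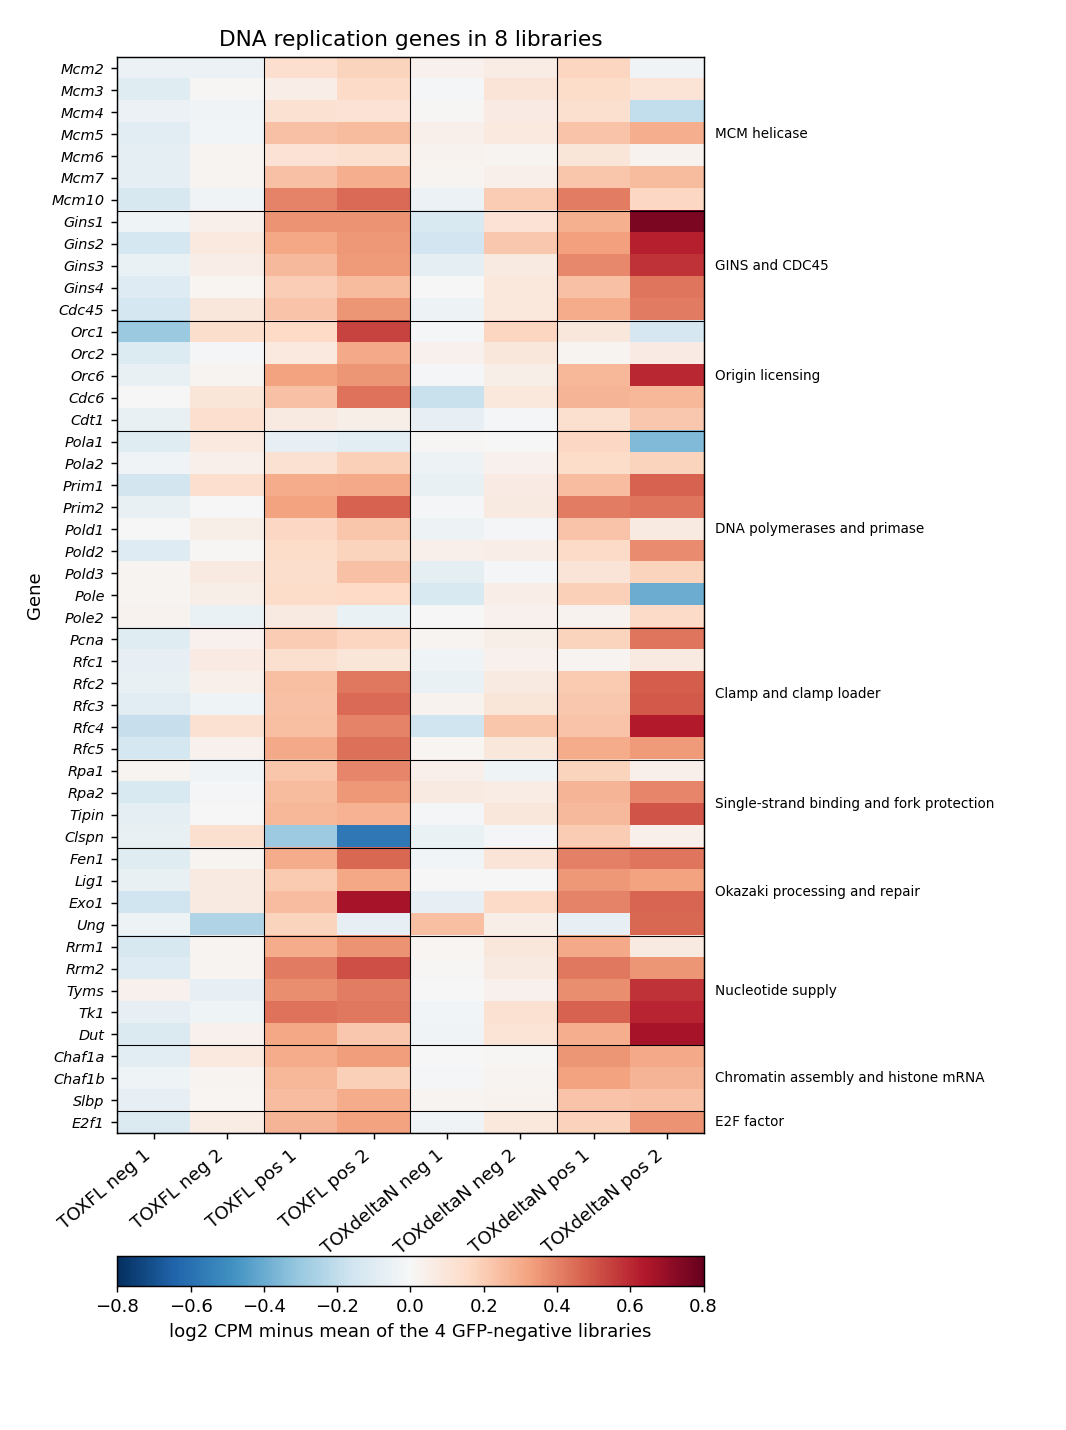
Log2 CPM of each of the 49 genes (rows, grouped by role) in each of the 8 libraries (columns), minus the mean of the 4 GFP-negative libraries, on a colour scale from -0.8 (blue) to 0.8 (red). The 4 positive columns are mostly red, while Clspn is blue with TOXFL and Pole, Pola1 and Mcm4 are blue in TOXdeltaN-positive replicate 2.

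Library totals lay between 25059112 and 31240067 counts, and the replication genes took between 0.828% and 1.07% of them. Tox, which checks the labels, had 25.1, 34.4, 21.8 and 32.2 CPM without GFP and 105, 126, 107 and 82.9 CPM with GFP, from the endogenous gene and the vector together. In these and all later lists of 4 values the order is TOXFL replicates 1 and 2, then TOXdeltaN replicates 1 and 2. The 7 markers of CD8 T cells summed to between 4500 and 5008 CPM. Markers of other cells were low. The sum of 7 B cell genes, of which 1 was at 0 throughout, was 16.4 to 17.5 CPM in the negative and 14.1 to 16.5 CPM in the positive libraries, and that of 3 NK and gamma-delta genes was 0.916 to 2.26 and 0.534 to 0.959 CPM. For 10 myeloid genes (3 at 0 throughout) it was 2.16 to 3.21 and 1.16 to 3.42 CPM, for 3 CD4 T cell genes 1.91 to 5.44 and 1.68 to 4.85 CPM, and for 5 erythroid genes (1 at 0 throughout) 0.106 to 2.91 and 0.135 to 4.34 CPM. The part of these cells in the results was not tested. TOXdeltaN-positive replicate 2 had the fewest counts. Whether replicates 1 and 2 are separate animals, cultures or sorts is not said in the labels. The p-values therefore rest on the spread between these libraries alone, which may be technical.

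Because the members moved together and E2F factors are known regulators of many of them, their promoters were searched for E2F-type letters. RefSeq windows (GRCm38.p6) from 250 bases before to 50 bases after the start were given for 40 of the 49 members. The letters TTTCCCGC, TTTGCCGC, TTTCGCGC or TTTGGCGC, on either strand and with overlaps counted, stood in 15 of these 40 genes (37.5%) and in 704 of 27025 genes of the same table (2.605%). The letters CCAAT, on either strand, stood in 24 of the 40 (60%) against 41.1% of all genes, and TTTGAA, on either strand, in 5 (12.5%) against 20.2%. A match describes the letters and is not a binding site. The median average effect was 0.16 for the 15 genes with E2F-type letters, 0.32 for the 25 with a window and none, and 0.34 for the 9 without a window. The carriers also differ from the other genes in role, and whether E2F factors had a part in the differences was not tested. The stretches printed are 160 bases upstream of the start that RefSeq or GENCODE M21 places farther out, 5′ to 3′ on the gene's strand, with E2F-type letters in capitals; 0 annotated exons overlap them. They show 2 helicase subunits with overlapping matches, of which Mcm5 was called in the blocked average and Mcm6 was not, a gene with a match whose average was below 0 (Pola1), and 2 genes with large averages and no match in their windows (Rrm2 and Tk1).
Mcm5, chr8:75109349-75109508, plus strand: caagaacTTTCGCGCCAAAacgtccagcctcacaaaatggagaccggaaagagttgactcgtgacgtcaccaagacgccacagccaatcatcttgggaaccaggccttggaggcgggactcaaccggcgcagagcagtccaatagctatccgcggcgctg
Mcm6, chr1:128359706-128359865, minus strand: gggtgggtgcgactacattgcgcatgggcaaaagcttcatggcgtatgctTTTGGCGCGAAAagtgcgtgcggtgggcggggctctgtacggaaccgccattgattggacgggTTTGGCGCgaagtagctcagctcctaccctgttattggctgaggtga
Pola1, chrX:93632156-93632315, minus strand: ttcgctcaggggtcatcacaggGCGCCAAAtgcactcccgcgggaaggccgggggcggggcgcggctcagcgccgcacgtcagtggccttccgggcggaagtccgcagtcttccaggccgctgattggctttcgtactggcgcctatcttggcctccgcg
Rrm2, chr12:24708081-24708240, plus strand: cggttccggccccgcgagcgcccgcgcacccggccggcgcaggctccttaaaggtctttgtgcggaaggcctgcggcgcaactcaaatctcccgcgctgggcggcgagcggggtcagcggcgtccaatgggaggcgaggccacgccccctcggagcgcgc
Tk1, chr11:117826093-117826252, minus strand: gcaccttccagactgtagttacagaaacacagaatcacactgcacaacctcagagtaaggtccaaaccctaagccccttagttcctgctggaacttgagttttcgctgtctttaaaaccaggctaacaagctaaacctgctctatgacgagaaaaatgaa

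The MCM helicase genes were the group with the smallest summed difference with TOXdeltaN. MCM2 to MCM7 form the ring that unwinds DNA, and MCM10 acts when the ring is activated. Their summed CPM was 1.16-fold higher with TOXFL and 1.06-fold higher with TOXdeltaN. The average called 0 of 7 without the block and 3 of 7 with it, namely Mcm5, Mcm7 and Mcm10. Mcm5 was at 469, 491, 513 and 526 CPM in the negative libraries, and positive libraries were at 589, 594, 584 and 610.0 CPM. All positive libraries were above all negative ones, and the average was 1.19-fold (log2 0.25, SE 0.0562, adjusted p = 0.054; blocked adjusted p = 0.0113). With TOXFL alone, Mcm5 was called in the blocked fit only (log2 0.30, adjusted p = 0.0466). Mcm7 had 398, 426, 427 and 432 CPM in the negative libraries against 495, 514, 490.1 and 501 CPM in the positive libraries, again without overlap (blocked adjusted p = 0.0126 for the average).

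Mcm10 was at 71.99, 77.2, 76.4 and 90.8 CPM in the negative libraries, and positive libraries were at 104, 108, 105 and 88.6 CPM. The TOXFL groups were apart, and the TOXdeltaN groups overlapped because TOXdeltaN-positive replicate 2 fell within the negative range. Its log2 difference was 0.51 with TOXFL (SE 0.118, adjusted p = 0.138, blocked 0.039) and 0.21 with TOXdeltaN (SE 0.118, adjusted p = 0.492), and the average had a blocked adjusted p of 0.0181. The other ring subunits were closer to 0. Values of Mcm2 were 397, 397, 419.8 and 428 CPM without GFP and 449.9, 464, 462 and 402 CPM with GFP, so TOXdeltaN-positive replicate 2 was below both negative libraries of its culture (average log2 0.12, SE 0.0641, adjusted p = 0.323). Mcm4 was at 388, 392, 402 and 419 CPM in the negative libraries, and positive libraries were at 436, 433, 437 and 349 CPM, with the lowest value of all 8 in TOXdeltaN-positive replicate 2. Mcm6 had 768, 823, 824 and 822 CPM in the negative libraries against 875, 884, 866 and 825 CPM in the positive libraries, so the lowest positive and the highest negative library all but touched (average log2 0.091, SE 0.0559, adjusted p = 0.365). Mcm3, with an average of 0.12, had positive libraries above negative ones within each culture but not across cultures.

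GINS and CDC45, which join the MCM ring to make the moving helicase, were higher with both vectors. All 5 genes had every positive library above every negative library, and their summed CPM was 1.24-fold higher with TOXFL and 1.297-fold higher with TOXdeltaN. The average called 1 of 5 without the block and 5 of 5 with it. Gins3 was at 31.2, 33.7, 30.9 and 34.1 CPM in the negative libraries, and positive libraries were at 38.8, 41.02, 42.3 and 48.5 CPM. This was 1.31-fold on average (log2 0.39, SE 0.0794, adjusted p = 0.0407), and Gins3 was also called with TOXdeltaN in the blocked fit (log2 0.48, adjusted p = 0.0391). Gins1 had 14.6, 15.4, 13.8 and 16.2 CPM in the negative libraries against 19.2, 19.2, 18.2 and 25.2 CPM in the positive libraries. Gins1 had the third largest average of the 49 (log2 0.44, SE 0.117, adjusted p = 0.0785, blocked 0.0175), with its highest value in TOXdeltaN-positive replicate 2. Gins2 was at 40.1, 46.7, 39.8 and 51.3 CPM in the negative libraries, and positive libraries were at 54.8, 56.1, 55.6 and 67.95 CPM (blocked adjusted p = 0.00739). Of the exon bases of Gins2, 67.3% overlap Gse1 on the other strand. The library chemistry does not mark strand, so reads from the shared bases cannot be told apart by strand. Values of Gins4 were 59.9, 65.1, 64.4 and 68.2 CPM without GFP and 73.6, 76.8, 75.5 and 86.6 CPM with GFP, and Cdc45 had 74.1, 87.1, 79.4 and 86.7 CPM in the negative libraries against 95.7, 104, 100.1 and 109 CPM in the positive libraries. Their averages were 0.28 (blocked adjusted p = 0.0158) and 0.32 (blocked adjusted p = 0.00741).

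The licensing genes were mixed. ORC1, ORC2 and ORC6 belong to the complex that marks origins, and CDC6 and CDT1 help to load the MCM ring. Summed CPM was 1.17-fold higher with TOXFL and 1.16-fold higher with TOXdeltaN, and the average called Orc6 without the block and Orc6 and Cdc6 with it. Orc6 was at 48.02, 50.7, 49.8 and 51.8 CPM in the negative libraries, and positive libraries were at 62.7, 64.1, 60.3 and 76.1 CPM, with no overlap (average log2 0.39, SE 0.0842, adjusted p = 0.0467). Cdc6 had 85.2, 91.6, 75.7 and 90.6 CPM in the negative libraries against 101, 116, 103 and 103 CPM in the positive libraries, also with no overlap (average log2 0.30, SE 0.0813, blocked adjusted p = 0.0153). Values of Orc1 were 19.9, 26.9, 24.3 and 27.6 CPM without GFP and 27.4, 35.7, 26.1 and 22.3 CPM with GFP. The TOXFL groups of Orc1 were apart by 1.35-fold, yet its replicates differed by up to 0.44 on the log2 scale, and with TOXdeltaN the groups overlapped (log2 -0.10, SE 0.1796). The difference between the vectors for Orc1 was 0.53 (SE 0.253, unadjusted p = 0.0651, edgeR adjusted p = 1). In the blocked fit this difference was 0.52 (edgeR unadjusted p = 0.0362, adjusted p = 0.989). Cdt1 was at 93.4, 107, 93.2 and 96.99 CPM in the negative libraries, and positive libraries were at 102, 101, 106 and 113 CPM. For Cdt1 the TOXFL groups overlapped (log2 0.018) while the TOXdeltaN groups did not (log2 0.21), and neither was called. Orc2, 29.8% of whose exon bases overlap Nif3l1 on the other strand, had an average of 0.12 (adjusted p = 0.376).

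Among the DNA polymerases, the primase genes differed and the large catalytic subunits of polymerases alpha and epsilon had the smallest averages. The summed CPM of the 9 genes was 1.12-fold higher with TOXFL and 1.11-fold higher with TOXdeltaN. The average called Prim2 without the block, and Prim1, Prim2 and Pold2 with it. Prim2 was at 43.6, 45.5, 45.1 and 47.8 CPM in the negative libraries, and positive libraries were at 56.9, 63.1, 60.5 and 61.2 CPM. Prim2, the large primase subunit, was 1.33-fold higher on average (log2 0.41, SE 0.06905, adjusted p = 0.0255), and with TOXFL alone it was called in the blocked fit (log2 0.43, adjusted p = 0.0287). Prim1 had 70.7, 85.8, 75.1 and 81.99 CPM in the negative libraries against 96.2, 96.7, 92.9 and 109 CPM in the positive libraries. Prim1, the catalytic primase subunit, had an average of 0.33 (SE 0.0856, blocked adjusted p = 0.0108). Values of Pold2 were 133, 143, 146 and 147 CPM without GFP and 157, 161, 158 and 185 CPM with GFP. Pold2, an accessory subunit of polymerase delta, had no overlap and an average of 0.22 (blocked adjusted p = 0.0435).

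Pola1 was at 91.9, 104, 98.9 and 98.3 CPM in the negative libraries, and positive libraries were at 93.9, 92.1, 110.2 and 76.9 CPM. The groups of Pola1, the catalytic subunit of polymerase alpha, overlapped with both vectors, and its average was the second lowest; its upstream stretch is printed with E2F-type letters (log2 -0.074, SE 0.107, adjusted p = 0.724). Pole had 141, 143, 127 and 144 CPM in the negative libraries against 153, 155, 158 and 105 CPM in the positive libraries. Pole, the catalytic subunit of polymerase epsilon, was apart with TOXFL and overlapped with TOXdeltaN, where replicate 2 of the positive cells had the lowest value of all 8 (average log2 0.038, SE 0.115, adjusted p = 0.881). Without TOXdeltaN-positive replicate 2, the TOXdeltaN difference was 0.16 for Pola1 and 0.22 for Pole, in place of -0.075 and -0.041. Pold1 was at 312, 322, 303 and 311 CPM in the negative libraries, and positive libraries were at 349.7, 364, 365 and 328 CPM. Pold1, the catalytic subunit of polymerase delta, had no overlap but was not called in either fit (average log2 0.17, SE 0.0621, adjusted p = 0.151, blocked 0.0794). Pola2 and Pold3 were also above the negative libraries in every positive library, with averages of 0.16 and 0.16, and were not called in either fit. Pole2 stayed between 43.95 and 50.8 CPM in all 8 libraries.

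PCNA, the clamp that tethers polymerases to DNA, and 4 of the 5 clamp loader genes were called in the blocked average. Their summed CPM was 1.22-fold higher with TOXFL and 1.204-fold higher with TOXdeltaN. Pcna was at 246, 269, 267 and 271 CPM in the negative libraries, and positive libraries were at 303, 297, 297 and 354 CPM. Its positive libraries were above its negative libraries, with replicate 2 of the TOXdeltaN-positive cells the highest (average log2 0.25, SE 0.0729, adjusted p = 0.0983, blocked 0.0302). Rfc5 had 137, 155, 153 and 161 CPM in the negative libraries against 187, 206, 186 and 192 CPM in the positive libraries. Rfc5 was the clamp loader gene called without the block (log2 0.34, SE 0.0691, adjusted p = 0.0387), and with TOXFL alone in the blocked fit (adjusted p = 0.0199). Rfc3 was at 37.3, 38.8, 40.7 and 42.6 CPM in the negative libraries, and positive libraries were at 46.8, 54.5, 46.2 and 56.00 CPM, with an average of 0.35 (SE 0.0872, blocked adjusted p = 0.0114). Values of Rfc1 were 129, 142, 132 and 139 CPM without GFP and 148, 145, 138 and 143 CPM with GFP. Rfc1, the large subunit, was the member of the complex nearest to 0, and its TOXdeltaN groups overlapped (average log2 0.080, SE 0.0634, adjusted p = 0.49). Rfc2 was at 168, 180.3, 169 and 184 CPM in the negative libraries, and positive libraries were at 207, 235, 202 and 245 CPM, and Rfc4 had 71.2, 87.9, 72.2 and 94.00 CPM in the negative libraries against 95.5, 106, 94.7 and 125 CPM in the positive libraries, in both cases without overlap. Rfc2 and Rfc4 had averages of 0.34 and 0.37, each with a blocked adjusted p of 0.00572. The TOXFL-negative, TOXdeltaN-negative and TOXdeltaN-positive replicates of Rfc4 differed by 0.31, 0.38 and 0.41 on the log2 scale, replicate 2 being higher.

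RPA binds single-stranded DNA at the fork, while TIPIN and CLSPN (Claspin) belong to the complex that steadies forks and passes on the replication checkpoint signal. Rpa2 was called in the average without the block, Rpa2 and Tipin with it, and Clspn had opposite orders with the vectors. Rpa2 was at 131, 141, 149 and 148 CPM in the negative libraries, and positive libraries were at 169, 181, 171 and 187 CPM. The average was 1.25-fold (log2 0.32, SE 0.06503, adjusted p = 0.0415), and Rpa2 was called with TOXFL in the blocked fit (log2 0.37, adjusted p = 0.0361). Tipin had 119, 125, 123 and 133 CPM in the negative libraries against 150.0, 151, 149 and 177 CPM in the positive libraries, without overlap (average log2 0.33, SE 0.0735, blocked adjusted p = 0.00878). Rpa1 had no overlap either, with an average of 0.21 (adjusted p = 0.118, blocked 0.053).

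Clspn lies on chromosome 4, 126556935 to 126593903 (ENSMUSG00000042489.15). With TOXFL it had 49.8 and 56.6 CPM in negative cells and 42.4 and 34.8 CPM in positive cells. With TOXdeltaN it had 50.1 and 51.2 CPM in negative cells and 59.6 and 53.4 CPM in positive cells. The TOXFL-positive libraries were thus the lowest of the 8 and both TOXdeltaN-positive libraries were above their negatives. Groups apart in opposite directions by vector, whichever vector was the higher, were seen in 1 of 49 members. That share is near the 2.48% of all tested genes, a count that did not require the lowest values of the 8. The TOXFL difference was -0.46 (SE 0.124, adjusted p = 0.172, blocked 0.0625) and the TOXdeltaN difference was 0.16 (SE 0.123, adjusted p = 0.606). The difference between them, -0.62 (SE 0.175), had an unadjusted p of 0.00587 and, by edgeR over all genes, an adjusted p of 1.

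**Figure D2:**
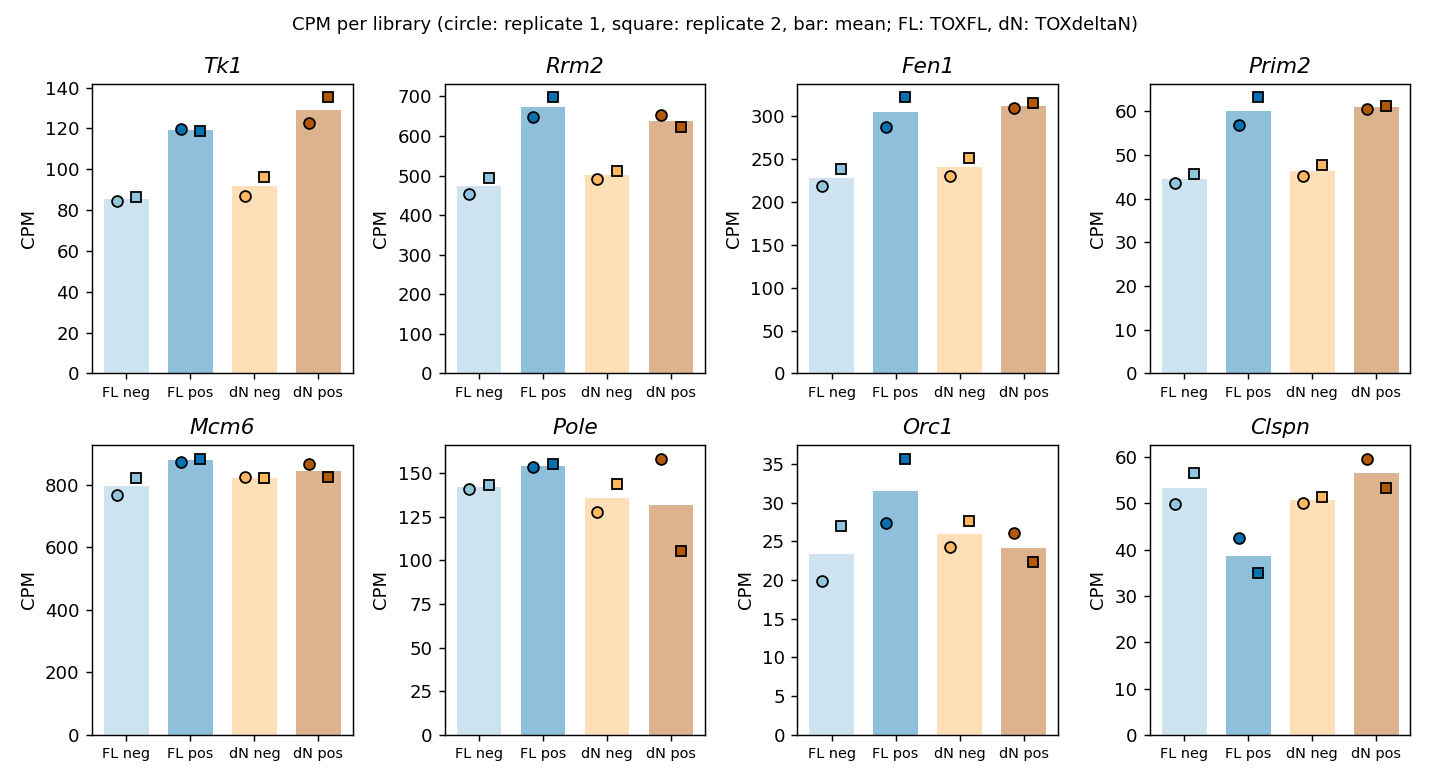
CPM of 8 genes in each library (circle, replicate 1; square, replicate 2; bar, group mean; each axis starts at 0). Tk1, Rrm2, Fen1 and Prim2 have all 4 positive libraries above all 4 negative libraries, Mcm6 has groups that all but touch, Pole and Orc1 overlap in the TOXdeltaN cultures, and Clspn is lowest in the TOXFL-positive cells.

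Genes that process and join Okazaki fragments were higher with both vectors, and Ung was not called. FEN1 trims the flap at each fragment's end, LIG1 seals the nick, EXO1 is an exonuclease of mismatch repair, and UNG removes uracil from DNA. Summed CPM of the 4 genes was 1.28-fold higher with each vector. Fen1 was at 218, 238, 229.6 and 251 CPM in the negative libraries, and positive libraries were at 287, 321, 309 and 314 CPM. The average was 1.32-fold (log2 0.40, SE 0.0685, adjusted p = 0.0257), and in the blocked fit Fen1 was called with TOXFL (adjusted p = 0.0192) and with TOXdeltaN (adjusted p = 0.0468). An antisense gene, Gm10143, overlaps 78.8% of the Fen1 exon bases, so reads from the shared bases cannot be told apart by strand. Lig1 had 189, 207, 196 and 196 CPM in the negative libraries against 228, 244, 250.4 and 246 CPM in the positive libraries, with no overlap (average log2 0.30, SE 0.0627, adjusted p = 0.0451). Exo1 was at 39.7, 46.7, 42.3 and 49.4 CPM in the negative libraries, and positive libraries were at 52.6, 70.1, 58.5 and 61.3 CPM. Exo1 had the second largest average (log2 0.45, SE 0.107, adjusted p = 0.0639, blocked 0.00476), and its highest value came from TOXFL-positive replicate 2. Values of Ung were 10.9, 9.47, 13.2 and 11.5 CPM without GFP and 12.7, 10.7, 10.7 and 15.4 CPM with GFP. The groups of Ung overlapped with both vectors, and its TOXdeltaN-positive replicates differed by 0.53 on the log2 scale, more than its average of 0.14.

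Nucleotide supply was the role with the largest median average, 0.43, against 0.28 over the 49 genes. RRM1 and RRM2 are the subunits of ribonucleotide reductase, which makes deoxynucleotides, TYMS and TK1 make thymidine nucleotides by synthesis and by salvage, and DUT removes dUTP. Summed CPM was 1.35-fold higher with TOXFL and 1.24-fold higher with TOXdeltaN, and the average called 3 of 5 without the block and 5 of 5 with it. Tk1 lies on GRCm38 chromosome 11, 117815526 to 117826092 (ENSMUSG00000025574.13). Tk1 was at 84.6, 86.5, 87.02 and 96.4 CPM in the negative libraries, and positive libraries were at 119, 119, 123 and 135 CPM. Tk1 had the largest average of the 49 (1.399-fold; log2 0.48, SE 0.0675, adjusted p = 0.0177), with 1.39-fold for TOXFL and 1.41-fold for TOXdeltaN. Its window holds no E2F-type letters. Its blocked adjusted p was 0.0153 with TOXFL and 0.0294 with TOXdeltaN. Rrm2 lies on chromosome 12, 24708241 to 24714146 (ENSMUSG00000020649.11). Rrm2 had 454, 494, 491 and 512 CPM in the negative libraries against 649, 697, 652 and 622 CPM in the positive libraries. The gap was wider in the TOXFL cultures, with log2 0.51 (SE 0.0872, adjusted p = 0.0896, blocked 0.0108), than in the TOXdeltaN cultures, with log2 0.35 (SE 0.0871), and that contrast was not called (difference 0.16, SE 0.123).

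Tyms was at 115, 107, 112 and 114 CPM in the negative libraries, and positive libraries were at 145, 149, 145 and 167 CPM. Tyms was 1.35-fold higher on average (log2 0.44, SE 0.0692, adjusted p = 0.0222) and was called with each vector in the blocked fit (adjusted p = 0.0408 and 0.0413). Rrm1 had 416, 461, 459 and 484 CPM in the negative libraries against 557, 582, 561 and 478 CPM in the positive libraries. The TOXFL groups of Rrm1 were apart and the TOXdeltaN groups overlapped in replicate 2 (average log2 0.26, SE 0.0721, blocked adjusted p = 0.0345). Dut was at 135, 150.3, 144 and 158 CPM in the negative libraries, and positive libraries were at 182, 170.1, 179 and 232 CPM, with the highest value in TOXdeltaN-positive replicate 2 (average log2 0.37, SE 0.0907, blocked adjusted p = 0.012).

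New DNA is wrapped on histones by chromatin assembly factor 1, of which Chaf1a and Chaf1b encode subunits, and SLBP binds the stem-loop of replication-dependent histone mRNAs. All 3 genes had every positive library above every negative one, with summed CPM 1.23-fold higher with TOXFL and 1.19-fold higher with TOXdeltaN. Chaf1a was at 138, 155, 148 and 148 CPM in the negative libraries, and positive libraries were at 181, 186, 188 and 182 CPM. The average was called (log2 0.32, SE 0.0637, adjusted p = 0.0379), though 52.5% of its exon bases overlap Ubxn6 on the other strand. Chaf1b had 83.1, 86.3, 84.5 and 86.5 CPM in the negative libraries against 102, 97.3, 107 and 103 CPM in the positive libraries (average log2 0.26, SE 0.0618, blocked adjusted p = 0.0181). Slbp was at 327, 348, 349 and 349 CPM in the negative libraries, and positive libraries were at 407, 422, 402 and 404 CPM (average log2 0.25, SE 0.0574, blocked adjusted p = 0.0133). E2f1 encodes a factor that activates S-phase genes. Values of E2f1 were 42.9, 48.6, 45.6 and 49.2 CPM without GFP and 56.2, 58.03, 52.9 and 59.6 CPM with GFP, which left a gap between the groups (average log2 0.28, SE 0.0767, adjusted p = 0.083, blocked 0.018).

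**Figure D3:**
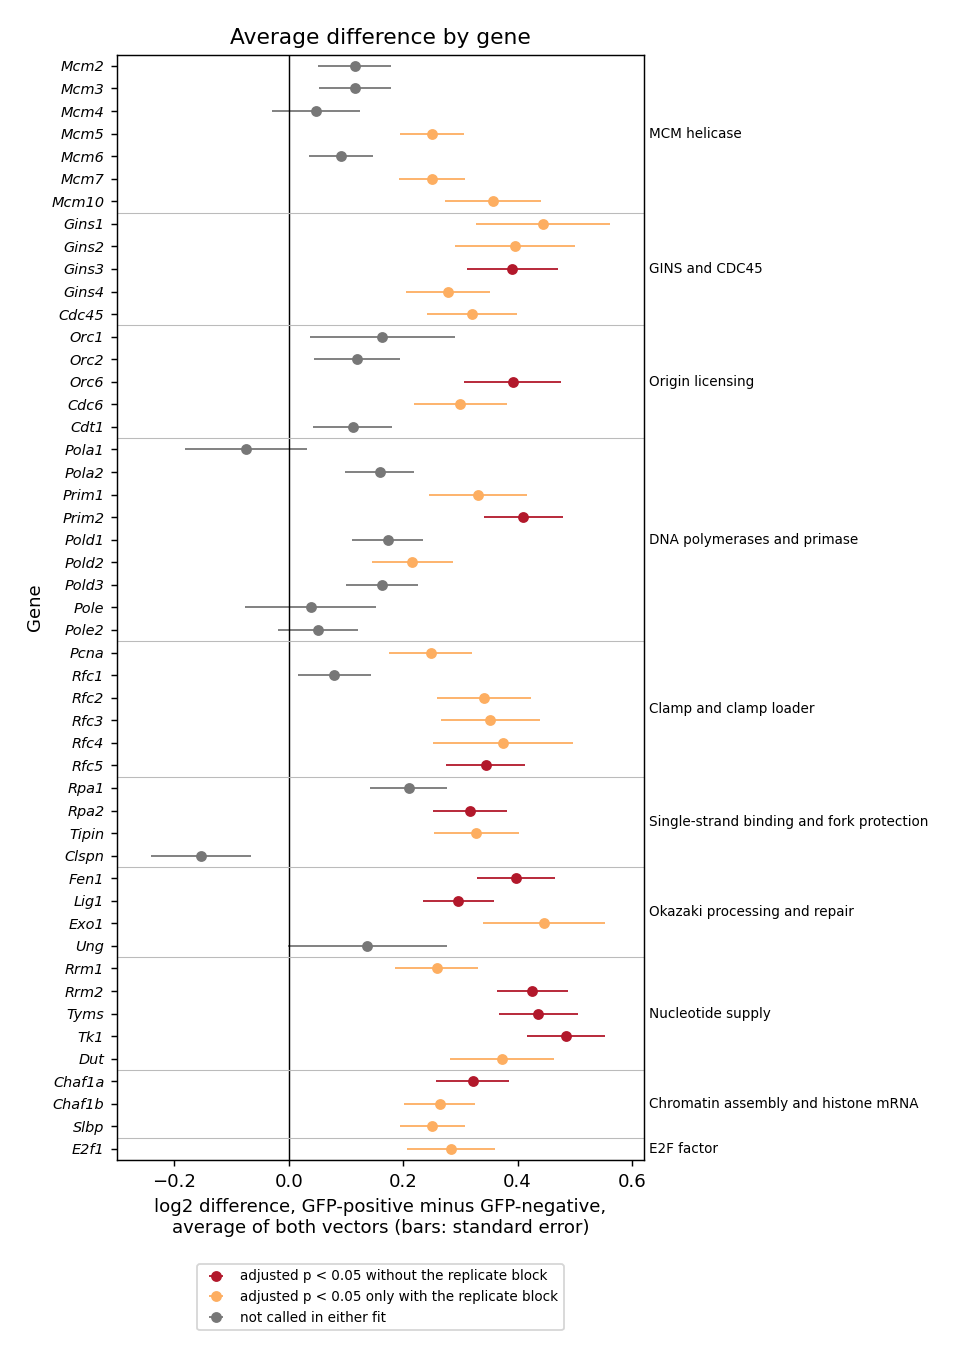
Average log2 difference between GFP-positive and GFP-negative cells of both vectors for each of the 49 genes, with its standard error as a bar and the roles at the right. The 11 genes called without the replicate block are dark red, the 21 further genes called with it are orange, and the 17 called in neither fit are grey, with Clspn and Pola1 left of 0.

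The vectors were then compared with each other. The TOXFL effect minus the TOXdeltaN effect was called for 0 of 49 members in either fit, where 0.0% of all genes were called. Without the block, the unadjusted p was under 0.05 for 1 member, Clspn, and DESeq2 called 0. In the blocked fit the unadjusted p was under 0.05 for 2 members, Clspn and Orc1. Without TOXdeltaN-positive replicate 1 the blocked fit called 5. The median of these differences over the members was 0.0013. Calls over all genes are not given for fits with a library left out, here or below. Member counts in those fits thus cannot be set against them. TOXFL-positive against TOXdeltaN-positive cells called 0 of 49 in either fit (0.0% of all genes, and 0.0075% with the block). Here 1 member had an unadjusted p under 0.05 without the block and 2 with it, and DESeq2 called 0. The lowest log2 difference was that of Clspn, at -0.55 (SE 0.124, adjusted p = 0.822, blocked 0.349), and the highest was that of Orc1, at 0.38. Without TOXdeltaN-positive replicate 1 this comparison called 2 members, and 9 in the blocked fit. TOXdeltaN-negative against TOXFL-negative cells also called 0 of 49 (0.0% of all genes), with 0 at an unadjusted p under 0.05 and 0 by DESeq2, and had a median of 0.058.

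By role, the TOXFL difference was the larger for all 7 MCM genes, with medians of 0.20 and 0.085, and the TOXdeltaN difference was the larger for all 5 GINS and CDC45 genes, with medians of 0.31 and 0.44. No contrast of these 12 genes exceeded 2 SEs. The MCM contrasts ran from 0.061 to 0.30 with SEs of 0.112 to 0.167, and the GINS and CDC45 contrasts from -0.19 to -0.020 with SEs of 0.146 to 0.233. The MCM genes have 3589 to 7692 bp of exon and the GINS and CDC45 genes 1349 to 4097 bp. With a correction for gene length the median contrast was 0.088 for the MCM genes, all 7 above 0, and -0.091 for GINS and CDC45, with 1 of 5 above 0. Each omission of a library left all 7 MCM contrasts above 0 (medians 0.071 to 0.16). These 7 genes share the same libraries and are not independent replicates. The share of all genes with a contrast above 0 is not given. The GINS and CDC45 median turned to 0.066 without TOXdeltaN-positive replicate 2, to 0.032 without TOXFL-negative replicate 2 and to 0.020 without TOXdeltaN-negative replicate 1, so its sign rested on single libraries. It was -0.19 without TOXFL-negative replicate 1, -0.26 without TOXdeltaN-negative replicate 2 and -0.22 without TOXdeltaN-positive replicate 1.

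**Figure D4:**
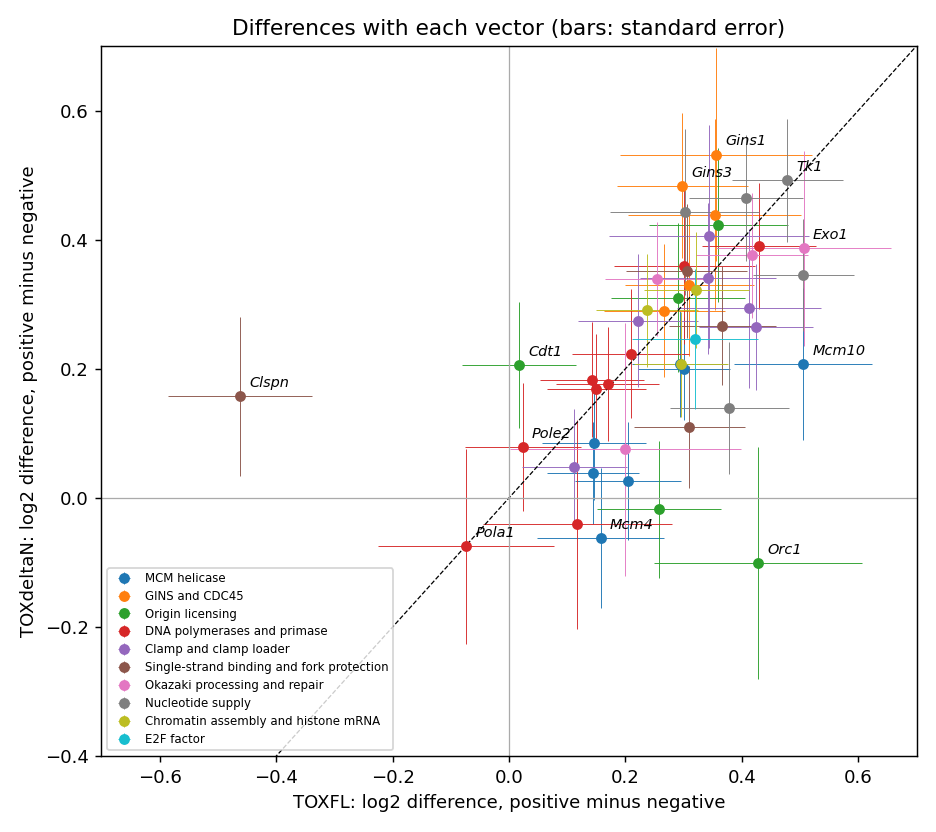
Log2 difference between GFP-positive and GFP-negative cells with TOXFL (horizontal axis) and TOXdeltaN (vertical axis) for the 49 genes, coloured by role, with standard errors as bars and a dashed line of equal effects. Most genes lie between 0.1 and 0.5 on both axes, MCM genes under the line, GINS and CDC45 genes over it, and Clspn at the far left.

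Members varied between replicates, and in 1 group the replicate difference was correlated with gene length. Replicate 2 was higher than replicate 1 for 45 of 49 members in the TOXFL-negative, 37 in the TOXFL-positive, 44 in the TOXdeltaN-negative and 32 in the TOXdeltaN-positive libraries. The median differences were 0.10, 0.052, 0.070 and 0.052 on the log2 scale, against an average difference with GFP of 0.28. Over all tested genes with counts in every library, the medians were -0.00035, -0.0025, 0.0016 and 0.0036. Across the 49 genes, the correlation of the replicate difference with log2 exon length was -0.61 in the TOXdeltaN-positive libraries and -0.16, 0.0013 and -0.18 in the TOXFL-negative, TOXFL-positive and TOXdeltaN-negative libraries. These genes share the libraries and are not independent replicates, and the correlation over all tested genes is not given. In the TOXdeltaN-positive group the 24 members with exons over 4268 bp had a median difference of 0.0019 and the other 25 had 0.17. Pole, with 11160 bp of exon, was the lowest at -0.59, and Ung, with 5468 bp, was the highest at 0.53. Longer members went both ways: Pola1 (8813 bp) was at -0.52, Mcm10 at -0.24 and Rrm1 at -0.23, whereas Rfc2 (6303 bp) was at 0.28 and Tyms (6089 bp) at 0.20.

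The GFP difference itself had a correlation with log2 exon length of -0.16 with TOXFL, -0.37 with TOXdeltaN and -0.30 on average. After a correction of each library's counts for gene length, the medians were 0.28, 0.27 and 0.27, close to the uncorrected 0.30, 0.27 and 0.28. The average then called 18 members. Calls over all genes are not given for that fit, so the count cannot be set against them.

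**Figure D5:**
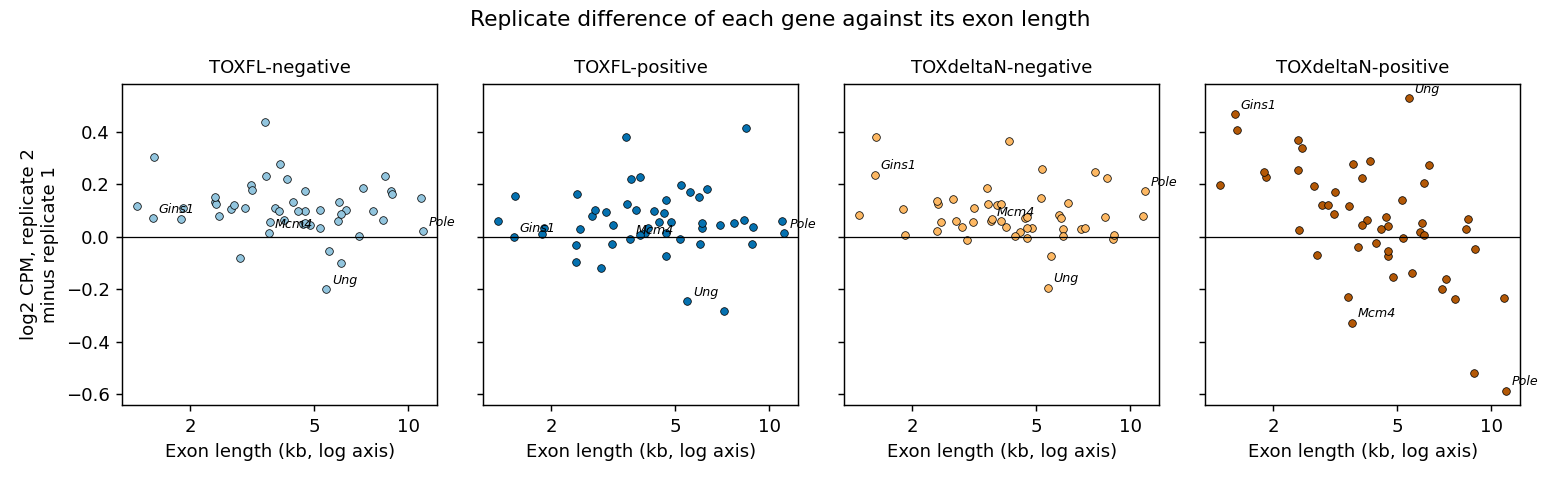
Log2 CPM of replicate 2 minus replicate 1 (vertical axis) against exon length in kb (horizontal log axis) for the 49 genes, in 1 panel per group. In the TOXdeltaN-positive panel short genes such as Gins1 lie above 0 and Pole, the longest, is the lowest at -0.59, while in the other panels the correlation with log2 length was between -0.18 and 0.0013.

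Levels were compared between genes per kb of annotated exon. As the mean of the 4 negative libraries, the highest were Rrm2 at 176 CPM per kb, Mcm6 at 173, Mcm5 at 125, Mcm3 at 123, Mcm4 at 111 and Pcna at 109.7. The lowest were Ung at 2.06, Exo1 at 5.29, Orc1 at 7.095, Clspn at 7.22 and Prim2 at 7.66. The 6 ring subunits were higher per kb than every gene that loads or activates the ring: Mcm2 had 59.01 and Mcm7 94.99 CPM per kb, against 10.3 for Mcm10, 23.3 for Cdc45, 47.7 for Gins4, 11.98 for Gins3, 31.1 for Cdt1 and 16.4 for Cdc6. Exon length here covers all annotated transcripts, so genes with long alternative exons, such as Rrm1 (11012 bp), have low values per kb. Of the 2 genes with the highest values per kb, Rrm2 rose by 0.43 on average and Mcm6 was not called.

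Genes of the pathway outside the 49 were tested in the same fits. Among 32 further origin and fork genes, the average called 3 higher (Gmnn, Rnaseh2c and Chtf18; 1.34% of all genes) and 0 lower (1.08% of all genes), with a median of 0.19. The blocked fit called 10 higher (6.04% of all genes) and 2 lower (Chtf8 and Mcm9; 6.69% of all genes). Of 10 further chromatin replication genes it called 1 higher, Asf1b, and 5 with the block, which adds Nasp, Uhrf1, Hells and Rbbp4. Of 13 S-phase cyclin, CDK and E2F family genes it called 1 higher, Ccna2, and 5 with the block, which adds Ccne1, Ccne2, Cdk2 and Tfdp1. Of 8 further nucleotide genes it called 1 higher and 1 lower, the latter Samhd1, and with the block 3 higher and 2 lower, the latter Samhd1 and Rrm2b. Chtf18, Mcm9, Nasp, Uhrf1, Hells, Rbbp4, Ccne1, Ccne2, Cdk2 and Tfdp1 are named after their values were seen, to account for these counts.

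Among these, Samhd1 fell on average. Samhd1 had 765, 638, 703 and 608 CPM in the negative libraries against 517, 489.5, 504 and 452 CPM in the positive libraries. SAMHD1, an enzyme that breaks down deoxynucleoside triphosphates, was lower in every positive library (log2 -0.47, SE 0.0819, adjusted p = 0.0257). Rrm2b, the ribonucleotide reductase subunit induced by p53, was at 23.3, 18.98, 20.6 and 15.9 CPM in the negative and 15.9, 12.6, 17.2 and 14.5 CPM in the positive libraries (average log2 -0.39, SE 0.1300, adjusted p = 0.133, blocked 0.0138), unlike Rrm2. Ccna2 was at 284, 335, 321 and 336 CPM in the negative libraries, and positive libraries were at 439, 426, 449.7 and 432 CPM, with an average of 0.45 (SE 0.0695, adjusted p = 0.0216) for this cyclin of S and G2 phase. Gmnn, an inhibitor of CDT1, had an average of 0.42 (adjusted p = 0.0474), Asf1b, a histone chaperone, 0.42 (adjusted p = 0.0216), and Rnaseh2c, a subunit of RNase H2, 0.41 (adjusted p = 0.0323).

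Chtf8 was at 71.1, 80.5, 71.2 and 66.04 CPM in the negative libraries, and positive libraries were at 51.3, 35.3, 73.4 and 61.8 CPM. Chtf8 belongs to the alternative clamp loader with CHTF18 and DSCC1, and it was lower with TOXFL (log2 -0.81, SE 0.169, adjusted p = 0.113, blocked 0.0146) and at -0.021 with TOXdeltaN (blocked adjusted p = 0.944). Its difference between the vectors was -0.79 (SE 0.237, adjusted p = 1). Beside these genes, 24 genes of mitosis had a median average of 0.43. Of them, 13 were called higher (1.34% of all genes) and 22 in the blocked fit (6.04% of all genes). Mki67, a marker of cycling cells, had an average of 0.060 (adjusted p = 0.703). Cdkn1a had 18.8, 26.5, 20.9 and 32.2 CPM in the negative libraries against 46.2, 62.1, 49.7 and 78.4 CPM in the positive libraries. Cdkn1a, which encodes a protein that inhibits cyclin-dependent kinases and binds PCNA, rose by 1.26 on average (SE 0.195, adjusted p = 0.0216), in the same libraries in which Pcna had more counts.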

How the data were processed

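RNA from sorted CD8 T cells (8 ng per library) was made into SMART-Seq v4 and Nextera XT libraries, per the labels' protocols. The authors deposited RSEM estimated counts per gene, in whole numbers (an expected count per gene), for 31815 genes and 92 spike-in rows that held 0 counts. The submitters' processing notes name bcl2fastq 2.20, cutadapt, STAR 2.6.1, RSEM 1.2.28 and GRCm38; the annotation release is not given in the sources used here. Coordinates and exon lengths came from GENCODE M21, which matched all 49 genes by versioned ID.

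Counts were fitted with edgeR 4.0.16 (R 4.3.3, TMM scaling, filterByExpr, quasi-likelihood test, 4 group means, Benjamini-Hochberg at 0.05 over 13329 genes). The standard errors (SE) were derived from this test, as the size of the log2 difference divided by the square root of its F statistic. The fit was tested on simulated data with changes larger than those of the members and with no replicate effect. Recovery of differences as small as those of the members was not tested. Alternatives used DESeq2 1.42.0, limma 3.58.1, other scalings and filters, a gene length correction (lowess, span 0.5) and omission of each library. Same-numbered libraries deviated together (6 pairs of groups, correlations 0.168 to 0.241 over all tested genes), so the blocked fit is given where it changes a call; the labels do not state this pairing. Values in every library are given for a fixed set of members by role, for every called member and for the 3 highest and 3 lowest averages; other pathway genes are named when called, at most 6 per comparison, apart from 1 result that is not reported here. The members and lists were chosen with earlier results of these data known.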

Additional observations from a re-analysis of the deposited data

Results flagged for a closer look

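Clspn was the one member whose libraries moved in opposite directions by vector: both TOXFL-positive libraries were below both TOXFL-negative libraries, and both TOXdeltaN-positive libraries were above both TOXdeltaN-negative libraries. The TOXFL effect minus the TOXdeltaN effect was -0.62 on the log2 scale (SE 0.175). In edgeR's quasi-likelihood test this difference had an unadjusted p of 0.00587. Its adjusted p over all genes in that test was 1.0 (0.989 with the replicate block), so it did not pass the correction. Groups apart in opposite directions, whichever vector was the higher, were seen in 2.48% of all tested genes. The 1 of 49 members is near that share, so the arrangement is not particular to the members.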

How the results depend on the processing

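The direction of the median member was the same under every alternative run, and the number of calls was not. For TOXFL the count of called members, 0, was 10 with the replicate block, 17 with the block and a length correction, 9 by DESeq2, 10 without a filter on low counts, and 0 to 3 when a library was left out. For TOXdeltaN, 0 became 4, 9, 2, 7 and 0 to 17 under the same settings. For the average, 11 became 32 with the replicate block, 34 with the block and the length correction, 31 by DESeq2, 31 without a filter, 18 with the length correction alone, 21 with a stricter filter (mean CPM of at least 8) and 0 to 33 when a library was left out, while DESeq2 size factors gave 11, upper-quartile scaling 13 and limma-voom 12. TOXFL-positive against TOXdeltaN-positive gave 1 without a filter and 0 to 2 with a library left out. The cause of these shifts was not tested. Counts over all genes are given only for the fits without and with the block, so the member counts under other settings cannot be set against them. With omissions in the blocked fit, chosen after seeing the data, the counts ran from 0 to 36 (TOXFL), 0 to 26 (TOXdeltaN), 6 to 40 (average), 0 to 5 (difference between vectors, 5 without TOXdeltaN-positive replicate 1) and 0 to 9 (positive cells). Leaving out a library moved the median between 0.23 and 0.34 for TOXFL, 0.20 and 0.30 for TOXdeltaN and 0.25 and 0.31 for the average. Over all genes, the calls without and with the block were 6 and 464 for TOXFL, 4 and 220 for TOXdeltaN and 323 and 1697 for the average. A fit of only the groups compared gives no value for the average or the difference between vectors. Signs that turned belonged to uncalled members near 0. With the length correction, without and with the replicate block, Cdt1 was -0.016 and -0.014, Pola1 0.0057 and 0.0043 and Pole2 -0.016 and -0.016 with TOXFL, Pola1 0.022 and 0.021 and Pole 0.083 and 0.082 with TOXdeltaN, and Pola1 0.014 and 0.012 on average. With upper-quartile scaling Orc2 was 0.0025 with TOXdeltaN. Omissions turned Cdt1 (-0.077 to 0.12), Pola1 (-0.16 to 0.018) and Pole2 (-0.038 to 0.082) with TOXFL. With TOXdeltaN they turned Mcm2 (-0.080 to 0.12), Mcm4 (-0.24 to 0.092), Mcm6 (-0.00079 to 0.073), Orc1 (-0.22 to 0.0066), Orc2 (-0.049 to 0.011), Pola1 (-0.36 to 0.16), Pole (-0.37 to 0.22) and Ung (-0.21 to 0.31). On average they turned Mcm4 (-0.040 to 0.12), Pola1 (-0.22 to 0.043), Pole (-0.12 to 0.17) and Ung (-0.0054 to 0.26).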
